A study of Gallus gallus with 9 samples.

Results

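Collagen genes were followed in the chick olfactory placode, the patch of thickened head ectoderm that gives rise to the olfactory epithelium and to migrating neurons. The members were all chicken probe sets to which the array's platform annotation gives exactly 1 gene symbol, with that symbol made of COL, a number, the letter A and a number. This rule uses names and no measured value, and it found 41 genes with 121 probe sets among the 13008 named genes on the array. The probe set with the highest mean over the 9 arrays stands for its gene. Of the 41 genes, 31 passed the filter on low values and were tested, and the other 10 were too dim. All 41 were matched by Entrez number to RefSeq's chicken gene table (assembly GRCg7b), which lists 41 genes with a symbol of this form.

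The groups were placodes from embryos of Hamburger and Hamilton (HH) stages 16, 18 and 20, written HH16, HH18 and HH20, with 3 samples at each stage that the labels call biological replicates. Genotype, strain, sex and treatment are not in the labels, and the number of embryos in a sample is not given either. Placodes were cut out by dissection, so a sample holds placodal epithelium and whatever cells adhered to it. Total RNA of each sample was amplified, labelled with biotin and hybridised to 1 Affymetrix chicken array. Each p-value rests on the spread among these samples alone.

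Collagens are secreted or membrane-bound proteins whose chains wind into a stiff helix. Fibrillar collagens build the cables of connective tissue, fibril-associated collagens with interrupted triple helices (FACITs) coat those cables, collagen VI forms beaded filaments between cells, and collagen IV forms the meshwork of the basement membrane on which an epithelium rests. In the embryonic head, mesenchyme derived from neural crest and mesoderm is a main source of fibrillar collagen, and epithelia lay down basement membrane.

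Levels below are log2(intensity + 16) after quantile normalization of the 9 arrays, and a change is a difference of such levels, which understates the change of dim genes. A level belongs to 1 probe set and is set against the same probe set on other arrays, never against another gene. The trimmed mean signal of the deposited arrays ranged from 68.75 to 162.8, and the share of probe sets above the array's background ranged from 46.9% to 59.6%. Background was taken from the probe sets for viruses, as their 99th percentile on each array. Arrays of 1 stage correlated at 0.984 to 0.993 and arrays of different stages at 0.979 to 0.989. Of 11 olfactory placode markers, 8 were on the array and all 8 were tested, and each was above background on some arrays. Their summed signal was 2698 to 3217 at HH16, 2753 to 3036 at HH18 and 2801 to 2920 at HH20. In the test described below, 2 of the 8 were called higher and 0 lower between HH20 and HH16, with changes from -0.31 to 1.29. Between HH18 and HH16, 1 was called higher and 0 lower. Of all named genes, 7.14% and 2.92% were called higher in these comparisons.

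Between HH20 and HH16, the collagens that rose were chains of fibrils, a fibril-associated collagen and chains of filament- or network-forming collagens. The tested basement membrane and transmembrane collagens gave no call by their brightest probe sets. They are few, and 14.0% of all named genes were called, so this is not read as a trait of those classes. A dimmer probe set each of COL4A5 and COL23A1 was called lower. In limma's test, adjusted by Benjamini-Hochberg across the 24489 probe sets tested and called at 0.05, 8 of the 31 tested collagen genes were higher at HH20 and 1 was lower. Among all 10616 tested named genes, 7.14% were higher and 6.83% were lower, 14.0% in all. The genes that rose were COL5A2, COL24A1, COL1A2, COL5A1, COL14A1, COL6A1, COL6A2 and COL10A1, and the one that fell was COL9A1. COL6A2 and COL10A1 were not above background on any HH16 array, and COL10A1 passed the filter on low values only because of its HH20 arrays. The median change of the 31 genes was 0.05, against 0.00 for all named genes. The 3 arrays of HH20 all lay above the 3 of HH16 in 9 collagen genes, and all lay below them in 6, where 17.5% and 17.0% of all named genes did so. With arrays centred on their medians 7 collagen genes were called, and on the intensities as deposited 2 were, COL5A2 and COL10A1. In bulk tissue, fewer cells of a type and less RNA per cell cannot be told apart.

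**Figure D1:**
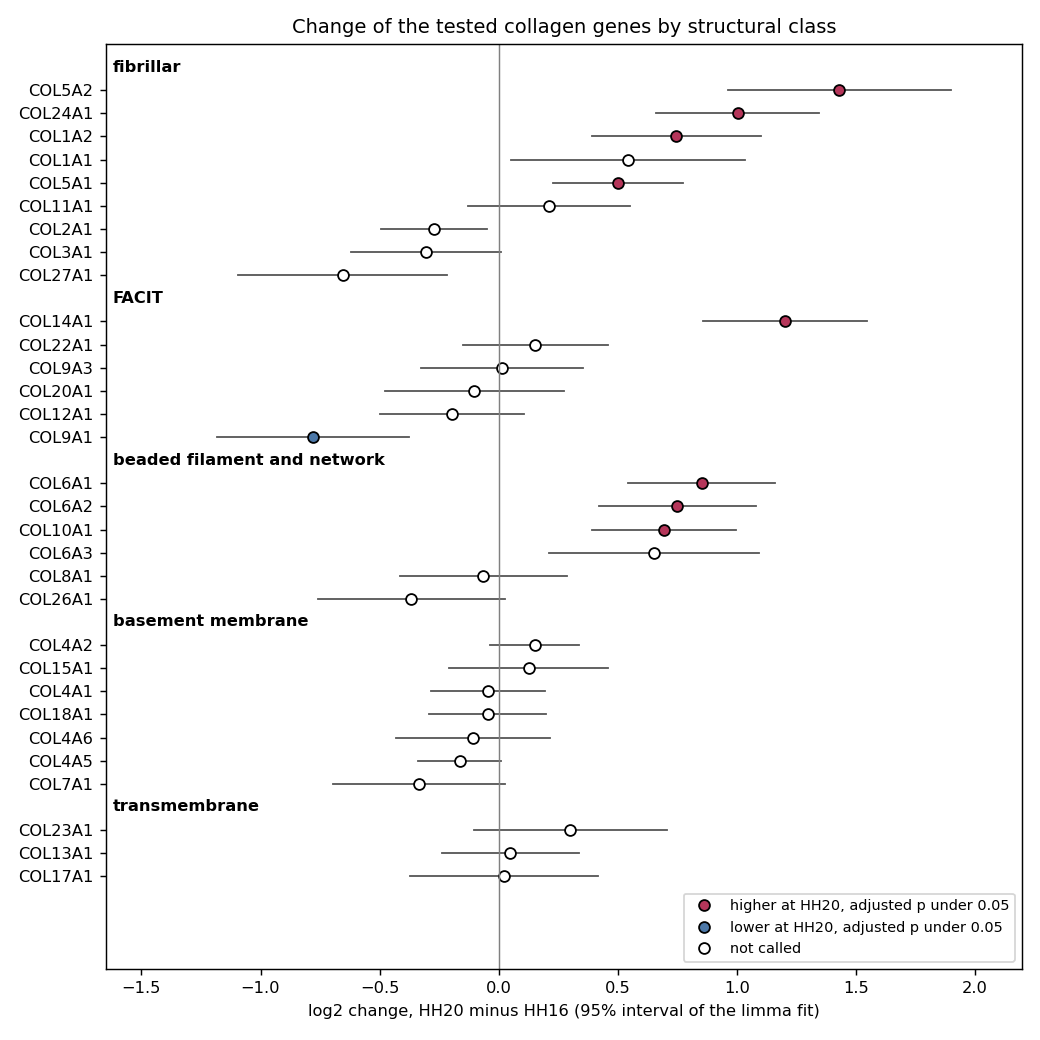
Change of each tested collagen gene (log2, HH20 minus HH16, horizontal axis) by structural class, with points at limma's estimate, bars for the 95% interval and filled points for an adjusted p under 0.05, where COL6A2 and COL10A1 are shown at the fitted value although they were not above background at HH16. The 8 filled points right of 0 are in the fibrillar, FACIT and filament or network classes, the 1 filled point left of 0 is COL9A1, and the 7 basement membrane genes lie between -0.34 and 0.15.

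The fibrillar class had 9 genes, all tested, of which 4 were higher and 0 lower at HH20 than at HH16. Of all named genes, 7.14% were higher and 6.83% lower in this comparison. In limma's test 7 of the 9 had an unadjusted p under 0.05, among them COL27A1 and COL2A1, whose estimates were below 0. Of all 10616 tested named genes, 3088 had such a p. The class median was 0.50, over a range from -0.66 to 1.43. COL5A2, a chain of type V collagen, which is built into type I fibrils and limits their width, had the largest change among the 31 representative probe sets. Its level was 7.22, 7.14 and 8.06 at HH16, then 7.91, 8.21 and 8.48 at HH18 and 9.38, 8.70 and 8.63 at HH20. Every HH20 array lay above every HH18 and HH16 array, while the HH18 and HH16 arrays overlapped. The mean was 8.90 ± 0.42 at HH20 and 7.48 ± 0.51 at HH16 (SD, n = 3 each), a rise of 1.43 ± 0.22 (log2, SE), or 2.69-fold, with an adjusted p of 0.000458 by limma. Its 2 other tested probe sets were dim and gave 0.06 and 0.29, neither called, and with the 3 averaged the rise was 0.59 ± 0.14 (adjusted p = 0.0153).

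COL5A1 is the partner chain of COL5A2 in type V collagen. It stood at 7.39, 7.70 and 7.31 at HH16, 7.75, 7.72 and 7.69 at HH18 and 7.94, 7.80 and 8.16 at HH20. The HH20 arrays were above all others. The rise between HH20 and HH16 was 0.50 ± 0.13 (log2, SE), 1.41-fold, with an adjusted p of 0.0182 by limma. The call was lost without HH16 replicate 1 (adjusted p = 0.050), HH16 replicate 3 (0.0879), HH20 replicate 1 (0.0591) or HH20 replicate 3 (0.10), and the estimate then lay between 0.40 and 0.51. Its second tested probe set gave 0.68 and was not called. With both averaged the rise was 0.59 ± 0.14 (adjusted p = 0.015 by limma), and the averaged rise of COL5A2 was also 0.59.

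COL24A1, a minor fibrillar collagen known in the mouse from developing bone and cornea, read 7.45, 7.65 and 7.50 at HH16. At HH18 it read 8.50, 8.56 and 7.87, and at HH20 8.45, 8.34 and 8.82. All 6 later arrays were above the 3 HH16 arrays, and HH18 replicate 3 was the lowest of the 6. The mean at HH20 was 8.54 ± 0.25 and at HH16 7.53 ± 0.10 (SD, n = 3 each), a 2.01-fold rise with an adjusted p of 0.000664 by limma. A dimmer probe set of COL24A1 was also called higher.

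Type I collagen, the main fibril of skin, bone and loose connective tissue, is made of chains from COL1A1 and COL1A2. COL1A2 read 8.81, 9.67 and 9.32 at HH16, 10.12, 9.97 and 9.72 at HH18 and 10.23, 9.73 and 10.07 at HH20. Its HH18 and HH20 arrays overlapped and all of them lay above those of HH16. The rise between HH20 and HH16 was 0.75 ± 0.17 (log2, SE), 1.68-fold, with an adjusted p of 0.00811 by limma, which became 0.0552 without HH20 replicate 1. Of its 4 other tested probe sets, 3 were called higher as well, by 1.10, 1.33 and 0.47. COL1A1, described after its values were seen because it pairs with COL1A2, read 8.35, 8.92 and 8.51 at HH16, 9.62, 9.71 and 8.55 at HH18 and 9.20, 8.80 and 9.42 at HH20. The stages overlapped, and the difference between HH20 and HH16 was 0.54 ± 0.23 (log2, SE), which did not pass (adjusted p = 0.155 by limma). It was called without HH18 replicate 3, with the same estimate and an adjusted p of 0.0225.

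**Figure D2:**
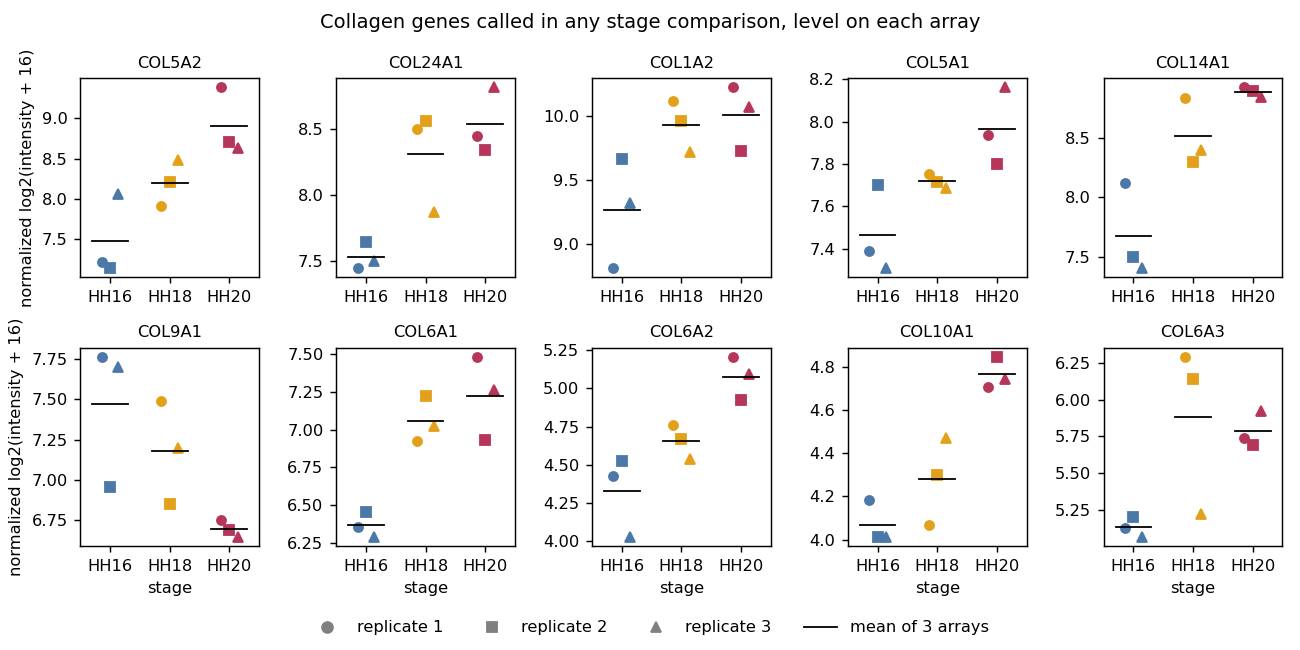
Level of each collagen gene called in any stage comparison on every array (vertical axis, normalized log2(intensity + 16)) against stage, with 1 symbol per replicate and a bar at the mean of 3 arrays. COL9A1 is the gene that was lower at HH20, and in COL24A1 and COL6A3 the HH18 replicate 3 symbol, at 7.87 and 5.22, lies below the other HH18 arrays.

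COL2A1, the fibril of cartilage and, in bird embryos, also of the notochord and of matrix under head epithelia, gave no call. It read 9.42, 9.71 and 9.48 at HH16, 9.48, 9.25 and 9.26 at HH18 and 9.15, 9.21 and 9.43 at HH20. The difference between HH20 and HH16 was -0.27 ± 0.11 (log2, SE), with an adjusted p of 0.115 by limma and a 95% interval from -0.49 to -0.05 before adjustment over genes. COL11A1, which makes a thin fibril inside cartilage fibrils, differed by 0.21 ± 0.16 at an adjusted p of 0.469, although a dimmer probe set of it was called higher by 0.49. COL27A1, known in the mouse from cartilage, had a mean of 5.31 at HH20 and 5.96 at HH16, and all HH20 arrays were below all HH16 arrays. Its difference of -0.66 ± 0.21 missed the threshold with all arrays (adjusted p = 0.0525 by limma), and it was called lower in 8 of 22 alternatives. Among them, leaving out HH16 replicate 3 gave -0.84 (0.029), and leaving out HH18 replicate 1 or 2 kept -0.66 (0.0308 and 0.0272).

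COL3A1, the fibril of stretchable tissues such as vessel walls, is described here because it lies next to COL5A2 in the RefSeq gene order; this choice was made after its values were seen. It read 6.68, 6.31 and 6.65 at HH16, 6.53, 6.18 and 6.60 at HH18 and 6.24, 6.17 and 6.31 at HH20. The difference between HH20 and HH16 was -0.31 ± 0.15 (log2, SE), with an adjusted p of 0.222 by limma, where its neighbour COL5A2 had risen by 1.43.

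Of the 10 FACIT genes, 6 were tested, and 1 was higher and 1 lower at HH20 than at HH16, with a class median of -0.04. Of all named genes, 7.14% were higher and 6.83% lower, so 1 call each way among 6 genes is not read as a trait of the class. COL14A1, which binds the surface of type I fibrils and regulates their growth in tendon and skin, had the smallest p among the representative probe sets. Its level was 8.12, 7.51 and 7.41 at HH16, 8.83, 8.30 and 8.40 at HH18 and 8.92, 8.89 and 8.84 at HH20. No stage overlapped another. The mean was 8.88 ± 0.04 at HH20 and 7.68 ± 0.39 at HH16 (SD, n = 3 each), a rise of 1.20 ± 0.16 (log2, SE), or 2.30-fold, with an adjusted p of 0.00013 by limma. Of its 3 other tested probe sets, 2 were called higher as well, by 1.04 and 0.78. The third, at a mean level of 4.86 and above background on every array, differed by -0.11 and was not called (adjusted p = 0.733 by limma). With its probe sets averaged the rise was 0.73 ± 0.16 (adjusted p = 0.00937).

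COL9A1, a chain of the collagen that decorates cartilage fibrils and that in the chick also lies in the early cornea and vitreous, was the collagen gene that fell. It read 7.76, 6.95 and 7.70 at HH16, 7.49, 6.85 and 7.20 at HH18 and 6.75, 6.69 and 6.64 at HH20. Replicate 2 was the lowest of its stage at both HH16 and HH18, yet all HH20 arrays were below all earlier ones. The mean was 6.69 ± 0.05 at HH20 and 7.47 ± 0.45 at HH16 (SD, n = 3 each), 1.72-fold lower, with an adjusted p of 0.0137 by limma. Without HH16 replicate 1, HH16 replicate 3 or HH20 replicate 3 the adjusted p was 0.0569, 0.0719 or 0.0507. Its other tested probe set gave -0.40 and was not called. Among the 7 cartilage markers, of which 6 were tested, HAPLN1, a link protein of cartilage matrix, was lower by 2.08 on the log2 scale at HH20 (adjusted p = 6.3e-08 by limma), and the other 5 were not called. The summed signal of this list was 715.5 to 882.7 at HH16, 409.4 to 457.3 at HH18 and 240.0 to 329.6 at HH20, and SOX6 was never above background. This sum includes HAPLN1, so it is not independent of that gene. The median change of the 6 tested markers between HH20 and HH16 was -0.18, with 2 above and 4 below 0. The part of these markers in the change of COL9A1 was not tested.

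COL12A1, a relative of COL14A1 on fibril surfaces, gave no call: it read 7.60, 7.50 and 7.21 at HH16, 7.35, 6.93 and 7.02 at HH18 and 7.24, 7.10 and 7.38 at HH20. The stages overlapped, and the difference between HH20 and HH16 was -0.20 ± 0.14 (log2, SE; adjusted p = 0.445 by limma). The remaining tested FACITs were dim, and COL22A1, COL9A3 and COL20A1 differed by 0.15, 0.01 and -0.10 at adjusted p-values of 0.574, 0.976 and 0.79.

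The class of beaded filament and network collagens had 6 tested genes of 9. Of these, 3 were higher and 0 lower at HH20 than at HH16, where 7.14% of all named genes were higher and 6.83% lower. The class median was 0.67, or 0.36 with COL6A2 and COL10A1, which were not above background at HH16, at their lower bounds. Collagen VI, the beaded filament found around cells in most connective tissues, is assembled from the products of COL6A1, COL6A2 and COL6A3. COL6A1 read 6.36, 6.46 and 6.29 at HH16, 6.93, 7.22 and 7.02 at HH18 and 7.48, 6.93 and 7.26 at HH20. Every later array was above every HH16 array. The rise between HH20 and HH16 was 0.85 ± 0.15 (log2, SE), 1.81-fold, with an adjusted p of 0.0011 by limma. The second probe set of COL6A1 gave 0.37 and was not called.

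COL6A2, which lies beside COL6A1 in the RefSeq gene order, was dim, at 4.43, 4.52 and 4.02 at HH16, 4.76, 4.67 and 4.54 at HH18 and 5.21, 4.92 and 5.10 at HH20. No stage overlapped another, and it was above background on 0 arrays of HH16, 1 of HH18 and 3 of HH20. HH20 was therefore at least 1.43-fold higher than HH16, a bound that sets the mean of the bright stage against the lowest signal above background on the arrays of the dim stage. The adjusted p of 0.00484 by limma is that of the fitted difference of 0.75, which uses HH16 readings below background. COL6A3 read 5.13, 5.20 and 5.06 at HH16, 6.29, 6.14 and 5.22 at HH18 and 5.74, 5.69 and 5.92 at HH20. Its HH20 arrays all lay above those of HH16, by a mean of 0.65 ± 0.21 (log2, SE), and the adjusted p of 0.0541 missed the threshold. Leaving out HH18 replicate 1, 2 or 3 left this estimate as it was and brought the adjusted p to 0.0369, 0.0489 or 0.00424.

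COL10A1, the network collagen of hypertrophic cartilage, had 1 probe set and was near background, at 4.18, 4.01 and 4.01 at HH16, 4.07, 4.30 and 4.47 at HH18 and 4.71, 4.85 and 4.74 at HH20. It was above background on the 3 HH20 arrays and on 0 arrays of HH16 and HH18. HH20 was at least 1.15-fold higher than HH16. The adjusted p of 0.00442 by limma is that of the fitted difference of 0.69, which uses HH16 readings below background. COL10A1 passed the filter on low values only because of its HH20 arrays. COL8A1, known from the basement membrane under the corneal endothelium, and COL26A1 differed by -0.06 and -0.37 between HH20 and HH16 and were not called (adjusted p = 0.869 and 0.242).

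No basement membrane collagen was called, with limma, in any of the 3 comparisons of the representative probe sets. Of 9 genes, 7 were tested, with 0 at an unadjusted p under 0.05 between HH20 and HH16, 0 between HH18 and HH16 and 1 between HH20 and HH18. Among all named genes, 14.0%, 5.90% and 0.471% were called in these comparisons, in the same order. At such shares, 0 calls among 7 genes is not read as a trait of the class. COL4A2 and COL4A1, the pair of chains of the widespread form of collagen IV, sit side by side in the RefSeq gene order. COL4A2 read 9.64, 9.80 and 9.75 at HH16, 9.82, 9.68 and 9.81 at HH18 and 9.86, 9.75 and 10.04 at HH20. Its stages overlapped, and HH20 differed from HH16 by 0.15 ± 0.09 (log2, SE), with a 95% interval from -0.04 to 0.34. COL4A1 differed by -0.04, with an interval from -0.28 to 0.20.

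COL4A5, a chain of a second form of collagen IV best known from the kidney and eye, read 9.86, 9.80 and 9.78 at HH16, 9.54, 9.71 and 9.78 at HH18 and 9.62, 9.67 and 9.67 at HH20. The 3 HH20 arrays were just below the 3 of HH16, by 0.16 on the log2 scale (-0.16 ± 0.08, SE, adjusted p = 0.242 by limma). A dimmer probe set of COL4A5 was called lower at HH20, with a change of -0.54 (adjusted p = 0.0354 by limma). COL18A1, whose cleaved end is endostatin, differed by -0.05, with an interval from -0.29 to 0.20. COL4A6, COL15A1 and COL7A1, the last of which forms the anchoring fibrils of skin, differed by -0.11, 0.13 and -0.34. COL15A1 was above background on 2 of 9 arrays, both of HH20, and COL7A1 on 2, both of HH16. The intervals of COL4A1, COL4A2 and COL18A1 exclude a change of the size seen in COL14A1 or COL5A2 for these probe sets.

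Transmembrane collagens, which stay anchored in the cell membrane, had 3 tested genes of 4. Limma called 0 in any comparison of their representative probe sets, with 0 at an unadjusted p under 0.05. Between HH20 and HH16, where most calls were made, 14.0% of all named genes were called, so 0 of 3 is not read as a trait of the class. COL23A1 read 6.41, 6.66 and 6.75 at HH16, 6.34, 6.88 and 6.74 at HH18 and 7.01, 7.28 and 6.43 at HH20. Its HH20 arrays ran both above and below the others, and the difference between HH20 and HH16 was 0.30 ± 0.19 (log2, SE, adjusted p = 0.369 by limma). A dimmer probe set of COL23A1 went the other way and was called lower, with a change of -0.57 (adjusted p = 0.0218 by limma). COL17A1, a hemidesmosome protein of basal epithelial cells, read 4.76, 5.14 and 5.35 at HH16, 5.13, 4.43 and 4.98 at HH18 and 5.10, 4.99 and 5.23 at HH20, a difference between HH20 and HH16 of 0.02 ± 0.19. COL13A1 differed by 0.05.

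The 10 genes that were not tested were COL16A1, COL19A1, COL21A1 and COL9A2 among the FACITs, COL4A3 and COL4A4 of the basement membrane, COL6A6, COL8A2 and COL28A1 among the filament and network genes, and the transmembrane COL25A1. COL19A1, COL21A1, COL25A1, COL28A1, COL4A4 and COL6A6 were above background on 0 of 9 arrays, and none of the 10 was above it on more than 2.

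**Figure D3:**
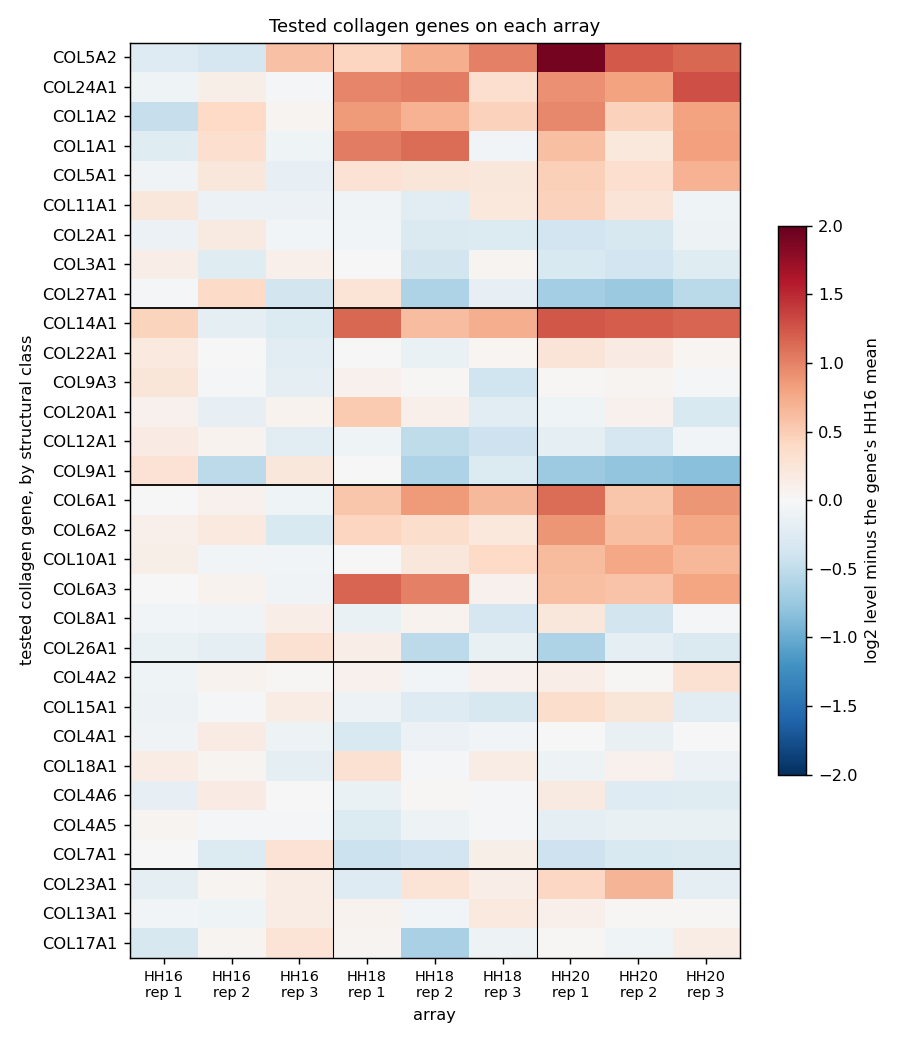
Level of each tested collagen gene (rows, by structural class) on each array (columns, by stage) minus the gene's HH16 mean, on the log2 scale from -0.83 to 1.91. Red rows toward HH20 are found among the fibrillar, FACIT and filament or network genes, and the basement membrane rows stay near 0.

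At HH18, part of these genes were already above HH16. Between HH18 and HH16, 5 collagen genes were higher and 0 lower in limma's test, where 2.92% of all named genes were higher and 2.98% lower, 5.90% in all. The 5 were COL14A1, COL24A1, COL6A1, COL1A2 and COL6A3, of which the first 4 were also called between HH20 and HH16. Those comparisons share their HH16 arrays. The median over the 31 genes was -0.02, with 15 above and 16 below 0. With arrays centred on their medians, or on the intensities as deposited, 0 collagen genes were called between HH18 and HH16, and the estimates of these 5 stayed above 0. All HH18 arrays were above all HH16 arrays in 6 collagen genes and below them in 0, against 12.4% of named genes each way.

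COL14A1 was higher by 0.83 ± 0.16 (log2, SE) at HH18 than at HH16, or 1.78-fold, with an adjusted p of 0.00812 by limma. COL24A1 was higher by 0.78 ± 0.16 or 1.72-fold, COL6A1 by 0.69 ± 0.15 or 1.61-fold, and COL1A2 by 0.67 ± 0.17 or 1.59-fold, at adjusted p-values of 0.0116, 0.0135 and 0.0305. COL14A1 was called without any 1 of the 9 arrays, but not with its probe sets averaged, where it was higher by 0.48 (adjusted p = 0.105). COL24A1 lost its call without HH18 replicate 2 (adjusted p = 0.0715), and COL6A1 without HH16 replicate 3 (0.0506) or HH18 replicate 2 (0.0708). The second tested probe sets of COL24A1 and COL6A1 gave 0.42 and 0.38 and were not called (adjusted p = 0.11 and 0.246 by limma). With the tested probe sets averaged, COL24A1 was higher by 0.60 (0.0195) and COL6A1 by 0.54 (0.0476). COL1A2 lost its call without HH16 replicate 1 (0.0927), HH16 replicate 3 (0.0705), HH18 replicate 1 (0.101) or HH18 replicate 2 (0.101). Of the 4 other tested probe sets of COL1A2, 3 were called higher at HH18 as well, by 0.96, 1.31 and 0.58. With its probe sets averaged, COL1A2 was higher by 0.66 (adjusted p = 0.00842 by limma). COL6A3 was higher by 0.75 ± 0.21 at an adjusted p of 0.0491, and this call was kept without HH18 replicate 3 and lost without any 1 of the other 8 arrays, where the adjusted p was between 0.0669 and 0.183.

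COL5A2 and COL5A1 were not called in the earlier comparison. COL5A2 differed by 0.72 between HH18 and HH16 (adjusted p = 0.0745 by limma), and by 1.02 at an adjusted p of 0.0115 without HH16 replicate 3, the highest array of its stage. COL5A1 differed by 0.25 (adjusted p = 0.305). Its second probe set, close to it in mean level, read 7.61 and 7.02 on replicates 1 and 2 of HH16 and slightly less on replicate 3, 7.58, 8.04 and 8.48 at HH18 and 8.44, 7.65 and 7.60 at HH20, a difference between HH18 and HH16 of 0.82 (0.0513), and with both averaged the gene was called higher at HH18 by 0.54 (0.0465). COL1A1 differed by 0.70 at an adjusted p of 0.103, and by 1.07 at 0.00186 without HH18 replicate 3.

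Between HH20 and HH18, limma called 0 of the 31 collagen genes, with 7 at an unadjusted p under 0.05, where 0.471% of all named genes were called. The median change was 0.11, or 0.09 with COL10A1 at its bound, with 18 genes above and 13 below 0. All HH20 arrays were above all HH18 arrays in 6 collagen genes, namely COL5A2, COL5A1, COL14A1, COL10A1, COL6A2 and COL22A1, and below them in COL9A1, where 8.57% and 7.32% of named genes did so. COL5A2 differed by 0.71 ± 0.22 (log2, SE) at an adjusted p of 0.265 and COL9A1 by -0.48 ± 0.19 at 0.426. COL10A1 was not above background on any HH18 array and exceeded its HH18 level by at least 1.07-fold on the HH20 arrays. Its fitted difference of 0.48 had an adjusted p of 0.22 by limma. COL24A1 differed by 0.22, COL6A1 by 0.17 and COL1A2 by 0.07.

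Whether the later step (HH20 minus HH18) differed from the earlier one (HH18 minus HH16) was tested in the same limma fit, and 0 of 31 collagen genes were called, with 1 at an unadjusted p under 0.05, where 0.0188% of named genes were called. The steps share the HH18 arrays. For COL5A2 the difference between steps was -0.02 ± 0.38 (log2, SE), for COL1A2 -0.60 ± 0.29 and for COL6A1 -0.52 ± 0.25. The moderated F test over the 3 stages called 9 of the 31 collagen genes, COL6A3 (adjusted p = 0.0492) among them and COL5A1 (0.0522) not, where 11.0% of named genes were called.

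COL1A1, COL24A1 and COL6A3 are given here because they were low on HH18 replicate 3. COL1A1 read 8.55 there, against 9.62 and 9.71 on the other HH18 arrays, COL24A1 read 7.87 against 8.50 and 8.56, and COL6A3 read 5.22 against 6.29 and 6.14. COL1A2, COL5A1, COL6A2, COL8A1, COL9A3, COL15A1 and COL20A1 also had their lowest HH18 level on that array. COL5A2 was instead highest there, at 8.48, as were COL3A1, COL4A1, COL4A5, COL7A1, COL10A1, COL11A1, COL13A1 and COL22A1. The tested collagen genes thus went both ways on this array. Without HH18 replicate 3, limma called the difference between steps for COL1A1 (-1.59 ± 0.30, log2, SE, adjusted p = 0.0481) and COL6A3 (-1.51 ± 0.27, 0.0385). With all arrays it was -0.85 ± 0.40 (0.511) and -0.85 ± 0.36 (0.464). Leaving out the array on which these genes were lowest at HH18 raises their HH18 mean, so no conclusion is drawn from these calls. No other alternative in which this difference could be fitted called a collagen gene.

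Some markers of other cells were low on that array too. PRRX1 and ALX1, transcription factors of head mesenchyme, were picked among the 9 tested mesenchyme markers because they were low there. They read 7.40 and 7.43 on HH18 replicate 3, where PRRX1 read 8.45 and 8.39 and ALX1 read 8.37 and 8.38 on the other HH18 arrays. The other tested markers of the list are not given for this array, so PRRX1 and ALX1 do not stand for the list. The summed signal of the mesenchyme list was 1036 on HH18 replicate 3 and 1437 and 1574 on the others. This sum includes PRRX1 and ALX1, so it is not independent of them. The summed signal of the endothelium list was 280.5 against 390.2 and 436.4. The part of these cells in the low levels of COL1A1, COL24A1 and COL6A3 on HH18 replicate 3 was not tested.

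**Figure D4:**
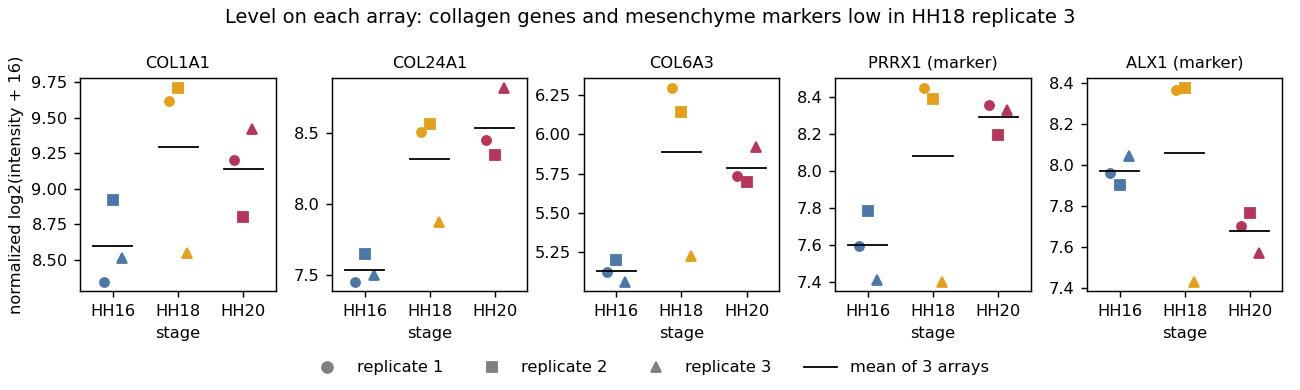
Level of COL1A1, COL24A1 and COL6A3 and of the mesenchyme markers PRRX1 and ALX1 on every array (vertical axis, normalized log2(intensity + 16)) against stage, with 1 symbol per replicate and a bar at the mean of 3 arrays. The 5 genes were picked because they were low on HH18 replicate 3. Its triangle lies below the other HH18 arrays in all 5 panels, at 8.55 for COL1A1 and 7.40 for PRRX1.

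Across stages, most tested markers of mesenchyme had negative estimates. Of the 15 markers on that list, 14 were on the array and 9 were tested. Between HH20 and HH16, 2 had a positive estimate and 7 a negative one, with a median of -0.33. Limma called SNAI2 and PRRX2 lower by 1.02 and 0.81 on the log2 scale (-1.02 and -0.81) and PRRX1 higher by 0.69. Among all named genes, 7.14% were called higher and 6.83% lower in this comparison. The summed signal of the mesenchyme list was 1356 to 1543 at HH16, 1036 to 1574 at HH18 and 1180 to 1463 at HH20, which overlap. TWIST2, TCF21 and ALX4 were never above background. The endothelium list, with 11 markers on the array and 9 tested, had CDH5 and EGFL7 higher at HH20 than at HH16 by 1.14 and 1.34, and its summed signal was 129.1 to 280.9 at HH16, 280.5 to 436.4 at HH18 and 432.6 to 496.0 at HH20. The HH20 sums lay above all HH16 sums. TAL1 and ROBO4 were never above background.

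Of 7 tested surface epithelium markers, 3 were called higher at HH20 than at HH16, where 7.14% of all named genes were. The summed signal of this list was 5516 to 6038 at HH16, 6114 to 6192 at HH18 and 6407 to 6675 at HH20. Of 5 tested neural crest and glia markers, 2 were called lower in that comparison, where 6.83% of all named genes were. Their sums were 2771 to 3234 at HH16, 2347 to 2676 at HH18 and 2279 to 2611 at HH20. The muscle factors MYOD1, MYF5 and MYOG were never above background, and the lens list summed to at most 71.4 on any array. The part of endothelial, epithelial and crest cells in the collagen changes was not tested.

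Most collagen genes had more than 1 probe set, and these can read different parts of a transcript. Among the 38 tested probe sets of collagen genes other than the representative ones, 7 were higher and 2 lower at HH20 than at HH16, 4 higher and 0 lower at HH18 than at HH16, and 0 higher and 1 lower at HH20 than at HH18, where 10.9%, 4.54% and 0.359% of all tested probe sets were called. No gene that rose had a probe set called lower. COL1A2, COL14A1 and COL24A1 each had at least 1 more probe set called in the same direction, and COL10A1 had no second probe set.

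**Figure D5:**
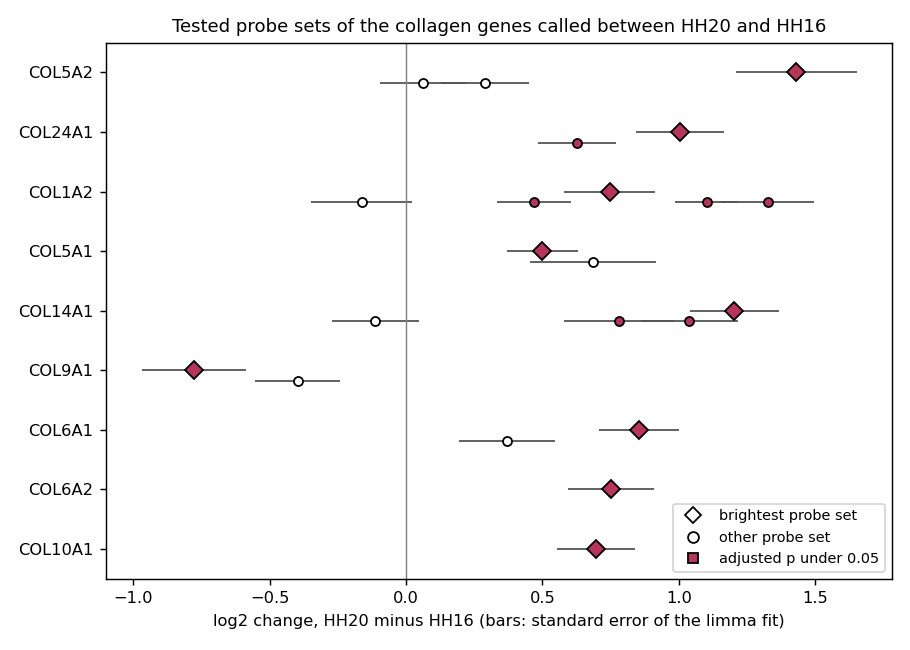
Change of every tested probe set (log2, HH20 minus HH16, horizontal axis; bars are the SE) of the 9 collagen genes called between HH20 and HH16, with diamonds for the brightest probe set, circles for others and filled symbols for an adjusted p under 0.05. COL1A2 has 3 filled circles and COL14A1 has 2, while the circles of COL5A2 are open, at 0.06 and 0.29.

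Of 28 genes for folding, modifying, exporting, trimming and cross-linking collagen on the array, 25 were tested, and between HH20 and HH16 limma called 1 higher and 2 lower, or 12%, against 14.0% of all named genes, with a median of 0.04. SEC23A, a coat protein of the vesicles that export procollagen, was higher by 0.35 ± 0.10 (log2, SE; adjusted p = 0.038). LOXL1, a cross-linking enzyme better known for elastin, differed by -0.52 ± 0.12 (0.0103) and PPIB, a proline isomerase that helps the helix to fold, by -0.28 ± 0.08 (0.0401). SERPINH1, the collagen chaperone HSP47, read 10.69, 10.63 and 10.56 at HH16, 10.68, 10.77 and 10.61 at HH18 and 10.82, 10.74 and 10.63 at HH20, with no call. SEC23A and LOXL1 were the genes of this list called between HH18 and HH16, by 0.40 and -0.56.

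Among 17 tested genes of the matrix that sits with collagen fibrils, of 22 on the array, 2 were higher and 2 lower at HH20 than at HH16, where 7.14% and 6.83% of all named genes were. Limma called 0 of them between HH18 and HH16, with 6 at an unadjusted p under 0.05, where 5.90% of all named genes were called. OGN, a small proteoglycan that binds fibrils, read 4.51, 4.24 and 4.06 at HH16, 4.80, 5.33 and 4.60 at HH18 and 5.84, 5.71 and 5.59 at HH20. Its levels did not overlap between stages, and it was above background on 1, 2 and 3 arrays of HH16, HH18 and HH20. FN1, the fibronectin on which collagen fibrils are laid down, read 10.20, 10.32 and 9.93 at HH16, 10.17, 10.23 and 9.96 at HH18 and 10.52, 10.53 and 10.73 at HH20, a rise of 0.44 ± 0.10 between HH20 and HH16 (log2, SE; adjusted p = 0.00831). FBN1, the main fibrillin of microfibrils, and MATN2, a matrilin, were lower, at -0.64 ± 0.18 (0.0262) and -0.60 ± 0.13 (0.00541).

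Of 8 tested genes for collagen breakdown, limma called 0 between HH20 and HH16 and 0 between HH18 and HH16, with 1 at an unadjusted p under 0.05 in each, where 14.0% and 5.90% of all named genes were called. Of 8 tested receptors, 3 were higher and 0 lower at HH20 than at HH16, with a median of 0.32, where 7.14% of all named genes were higher and 6.83% lower. CD44, a hyaluronan receptor that also binds collagen, read 5.64, 6.12 and 6.32 at HH16, 7.36, 7.37 and 6.89 at HH18 and 7.28, 7.44 and 7.34 at HH20, a rise of 1.33 ± 0.17 between HH20 and HH16 (log2, SE; adjusted p = 7.17e-05). ITGA2, the collagen-binding integrin chain of epithelia and platelets, read 6.74, 6.89 and 6.66 at HH16, 7.25, 7.45 and 7.27 at HH18 and 7.50, 7.71 and 7.78 at HH20, a rise of 0.90 ± 0.13 (0.000171). Both were also called between HH18 and HH16, by 1.18 and 0.56. The shared partner chain ITGB1 differed by 0.01 between HH20 and HH16. ITGA1, another collagen-binding chain, rose by 0.55 and was above background on 1, 1 and 3 arrays of HH16, HH18 and HH20. The discoidin receptors DDR1 and DDR2, kinases that bind collagen directly, differed by 0.36 and -0.34 and were not called (adjusted p = 0.0615 and 0.135). Between HH20 and HH18, limma called 0 genes of these 4 lists.

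The RefSeq table places 6 pairs of the 41 genes next to each other. In COL6A1 and COL6A2 both genes were called higher at HH20 than at HH16, by 0.85 on the log2 scale for COL6A1 and at least 1.43-fold for COL6A2. In COL3A1 and COL5A2 only COL5A2 was called, and in COL19A1 and COL9A1 only COL9A1, which fell while COL19A1 was too dim to test. In the COL4A1 with COL4A2 and COL4A5 with COL4A6 pairs neither gene was called. COL4A3 and COL4A4 were both too dim to test.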

How the data were processed

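Expression was measured on 9 Affymetrix chicken arrays. The deposited table holds 1 linear intensity per probe set, made with MAS5 per the submitters' processing notes; the scaling and the MAS5 version are not given in the sources used here. Controls, virus and reporter probe sets were left out, leaving 37693 of 38535. Values were taken as log2(intensity + 16) and quantile normalized, because the deposited intensity differed up to 2.37-fold between arrays. A probe set was tested if, on 3 or more of the 9 arrays, it exceeded the array's 40th percentile. All arrays entered 1 fit of stage means in limma 3.58.1 with R 4.3.3 (eBayes with an intensity trend, 6 residual and 11.1 prior degrees of freedom), tested two-sided, with Benjamini-Hochberg adjustment and a threshold of 0.05. The fit was tested on simulated data. The median SE of a difference between HH20 and HH16 was 0.15, and the number of arrays limits the precision. Values on every array are given for members called in any comparison and for the 2 with the highest mean in each class. The members, lists and tests were chosen with earlier results of these data known. Same-numbered replicates of different stages did not deviate together.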

Additional observations from a re-analysis of the deposited data

How the results depend on the processing

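The 8 collagen genes higher and the 1 lower at HH20 than at HH16 kept their direction under every alternative in which they were tested. With the filter at the 60th percentile, COL6A2 and COL10A1 were too dim to be tested. COL14A1, COL5A2, COL24A1, COL6A1, COL6A2 and COL10A1 were called without any 1 array, and the count of called collagen genes then ranged from 7 to 11. The scaling of the arrays mattered most. On the values as deposited, with no normalization between arrays, 2 collagen genes (COL10A1 and COL5A2) were called between HH20 and HH16, 0 between HH18 and HH16 and 0 by the F test, and the counts of probe sets were 44, 10 and 176 for HH18 against HH16, HH20 against HH18 and HH20 against HH16, where the quantile-normalized values gave 1111, 88 and 2673. The collagen partner lists then had 0 calls between HH18 and HH16 and 2 between HH20 and HH16, where they had 4 and 10. With arrays centred on their medians, 7 collagen genes were called between HH20 and HH16, 0 between HH18 and HH16 and 4 by the F test. That centring called 596, 90 and 805 probe sets, and 2, 1 and 4 partner genes. The median of all tested probe sets moved by -0.25, 0.22 and -0.05 in these comparisons on the values as deposited and by -0.17, 0.14 and -0.04 after median centring. The share of probe set calls that were higher was 50.9%, 70.5% and 53.2% after quantile normalization, 4.55%, 100% and 64.2% as deposited, 10.2%, 96.7% and 53.9% after median centring, and 51.3%, 82.6% and 57.3% with arrays scaled to a common trimmed mean. That last scaling called 4, 0 and 9 collagen genes. The cause of these shifts was not tested.

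Between HH18 and HH16, 3 collagen genes and 641 probe sets were called with no filter on low values, 3 and 577 with only the 6 arrays compared, and 1 and 403 with HH16 replicate 1 and HH18 replicate 2 left out together, where 1 partner gene was called. Leaving out 1 array gave 1 to 6 collagen genes, 399 to 996 probe sets and 1 to 5 partner genes, and without HH18 replicate 2 the 1 collagen gene was COL14A1. Between HH20 and HH18, 32 probe sets were called with no filter, 142 with array weights and 23 to 128 without 1 array. Partner genes called there were 2 with pseudocount 64, 2 with array weights, 1 with the 6 arrays compared, 1 with that pair of arrays left out, 1 without probe sets designed against several transcripts and 0 to 1 without 1 array. Between HH20 and HH16, leaving out 1 array gave 1415 to 3192 probe sets and 5 to 11 partner genes. The difference between steps was called for 0 to 2 collagen genes without 1 array. The F test and the difference between steps could not be fitted with the 6 arrays of 2 stages.

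Labels give each stage replicates 1 to 3. Deviations from the stage mean correlated at -0.128 to 0.0558 between same-numbered arrays of different stages, and at -0.177 to 0.135 between differently numbered ones. The labels do not say whether a number marks a shared day or batch, and these correlations cannot exclude it. With the replicate number as a block, 3 collagen genes (COL14A1, COL24A1 and COL6A1) were called between HH18 and HH16 and 9 between HH20 and HH16, and COL1A2 and COL6A3 missed the threshold between HH18 and HH16 at 0.0519 and 0.0562.

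Small changes that were not called turned their sign. As deposited, the change between HH18 and HH16 was -0.32 for COL23A1, -0.38 for COL4A2 and -0.16 for COL5A1, and that between HH20 and HH18 was 0.19 for COL1A1, 0.25 for COL2A1, 0.11 for COL3A1, 0.27 for COL4A5 and 0.15 for COL6A3. After median centring these were -0.23, -0.29 and -0.080, then 0.11, 0.17, 0.031, 0.20 and 0.069. With array weights, COL23A1 was -0.011 between HH18 and HH16 and COL17A1 -0.0098 between HH20 and HH16. When all probe sets of a gene were averaged, COL23A1, COL3A1 and COL4A2 were -0.012, 0.027 and -0.059 between HH18 and HH16. COL23A1, COL2A1 and COL4A2 were then -0.15, 0.0076 and -0.048 between HH20 and HH18, and COL23A1 and COL4A2 were -0.16 and -0.11 between HH20 and HH16. With HH16 replicate 1 and HH18 replicate 2 left out together, COL23A1, COL3A1 and COL9A1 were -0.16, 0.088 and 0.014 between HH18 and HH16, COL1A1 and COL6A3 were 0.057 and 0.026 between HH20 and HH18, and COL17A1 was -0.14 between HH20 and HH16. Without 1 array, the change between HH18 and HH16 ranged from -0.067 to 0.20 for COL23A1, from -0.0035 to 0.086 for COL4A2 and from -0.23 to 0.022 for COL3A1. That between HH20 and HH18 ranged from -0.52 to 0.057 for COL1A1, from -0.15 to 0.0096 for COL2A1, from -0.43 to 0.10 for COL6A3, from -0.034 to 0.22 for COL1A2 and from -0.095 to 0.026 for COL4A5, and that between HH20 and HH16 from -0.14 to 0.16 for COL17A1. COL6A2 and COL10A1 were not above background on any HH16 array, so their changes are bounds.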

Other observations

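In 3 collagen genes that gave no call between HH20 and HH16 by their brightest probe set, a dimmer probe set was called. The brightest probe set of COL23A1, a transmembrane collagen, was not called, while a dimmer one read 6.51, 6.33 and 6.17 at HH16, 6.69, 6.48 and 6.37 at HH18 and 5.56 and 5.75 on replicates 2 and 3 of HH20, whose replicate 1 was also below every earlier array. That probe set fell, with a change of -0.74 between HH20 and HH18 (log2, adjusted p = 0.044 by limma) and of -0.57 between HH20 and HH16 (0.022). It is the 1 collagen probe set called between HH20 and HH18. COL4A5 had a dimmer probe set that was lower at HH20, with a change of -0.54 between HH20 and HH16 (0.035), where its brightest differed by -0.16. A dimmer probe set of COL11A1 read 6.41, 6.29 and 6.25 at HH16, 6.74, 6.95 and 6.64 at HH18 and 6.82, 6.94 and 6.66 at HH20, higher at HH20 than at HH16 by 0.49 (0.025).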
